A study of Mus musculus with 7 samples.

Results

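The collagen chain genes were taken as the genes whose non-control probes carried a file gene name made of Col, a number, the letter a and a second number, such as Col1a1, Col3a1 or Col4a1. There were 41 such genes among 27126 named genes on the array, read by 63 of 55681 non-control probes. They were followed in C57BL6J mouse embryos that carry green fluorescent protein (GFP) knocked in at Osr1, an early gene of the intermediate mesoderm from which the kidney forms, so that Osr1-expressing cells could be sorted by their GFP. Every population came from animals of this genotype, and the number of embryos behind a sort is not given in the sources used here. At E8.5 the whole embryo gave GFP-positive and GFP-negative cells. At E9.5 the caudal part of the embryo gave gated cells, which were GFP-positive with the integrin Itga8 and without the receptor Pdgfra on their surface and were meant to hold nephron progenitors, and also the other GFP-positive cells outside this gate and the GFP-negative cells. At E11.5 the metanephric mesenchyme gave gated cells, sorted in the same way, and the other GFP-positive cells. Total RNA, 10 ng per population, was amplified and hybridised to 1 single-colour array per population. With 1 array in each of 7 populations there were no replicates of a population, so no difference between populations was tested, and each difference below describes these arrays alone, with an unknown spread between sorts and embryos.

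Collagens are secreted or membrane-bound proteins whose chains wind around each other into a triple helix, held together by glycine that recurs along each chain. The fibrillar types (I, II, III, V, XI, XXIV and XXVII) build the banded fibrils of connective tissue, type IV builds the sheet that lies under epithelia as the basement membrane, and the remaining types form finer networks, coat fibrils or span the cell membrane. In the developing kidney the nephron progenitors condense into epithelium on a basement membrane, while the stroma around them lays down interstitial fibrils.

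A level is the log2 signal of a spot minus that of the 75th percentile of its array, so a level of 0 is the signal at that percentile. The share of spots well above the local background lay between 56.2% and 84.1%, lowest on the E8.5 GFP-negative array and highest on the E9.5 array of other GFP-positive cells, and no spot was saturated. The sort genes followed the labels in direction: Osr1 was not well above background in either GFP-negative population, and Pdgfra stood at -5.92 in gated and 4.04 in other GFP-positive cells of E11.5, where the gated value was not well above background. At E9.5 Pdgfra stood at -0.52 in gated and 3.44 in other GFP-positive cells, and there the gated value was well above background. Itga8 stood at 2.15 in gated and 0.20 in other GFP-positive cells of E9.5, and at 2.82 and -1.31 in those of E11.5. For 399 probes with replicate spots, the median standard deviation over the spots of an array was 0.10 (log2), giving 0.14 for a difference between arrays. This measures spot noise alone. One slide held 2 arrays, those of gated and of GFP-negative E9.5 cells, and the remaining 5 arrays lay on a second slide. The slide and the population therefore cannot be told apart in the comparisons of gated with other GFP-positive cells of E9.5, of other GFP-positive with GFP-negative cells of E9.5, and of gated cells across stages. Every comparison across stages also differs in tissue, the caudal embryo at E9.5 and the metanephric mesenchyme at E11.5. Stage and tissue cannot be told apart in those comparisons.

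The sequences below show what the probes read and how the genes that differ most begin. The 60-base probe of Col1a2, the member with the largest difference of all, lies on chromosome 6 at chr6:4490619-4490678 of mm9 on the plus strand, across the end of the coding sequence. The stop codon is in capitals, and 16 bases of the 3′ untranslated region follow it.
Col1a2 probe: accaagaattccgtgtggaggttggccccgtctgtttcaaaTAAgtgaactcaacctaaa
The glycine repeat that makes a protein a collagen shows at full length in few probes. Among the 63 probes, 2 carried a glycine codon (GG and any base after it, in capitals) at every place of a 9-base spacing over their length, 6 places of 6. They belong to Col15a1 (chr4:47283786-47283845, mm9, plus strand) and Col25a1 (chr3:130270497-130270556, mm9, plus strand).
Col15a1 probe: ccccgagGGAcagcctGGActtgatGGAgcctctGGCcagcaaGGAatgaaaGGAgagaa
Col25a1 probe: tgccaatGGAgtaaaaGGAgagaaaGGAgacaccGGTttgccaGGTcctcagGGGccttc
The Col1a2, Col3a1 and Col18a1 promoters are shown because these genes stood far apart between the E11.5 populations, the first 2 lower and Col18a1 higher in gated cells. Each line holds the 200 bases upstream of a RefSeq start in GRCm38.p6 (for Col18a1 the more upstream of 2 listed starts), at chr6:4505418-4505617 (plus strand), chr1:45311338-45311537 (plus strand) and chr10:77166531-77166730 (minus strand), with the motifs TATAAA (the TATA box), CCAAT (the CCAAT box) and GGGCGG (the GC box), on either strand, in capitals.
Col1a2 promoter: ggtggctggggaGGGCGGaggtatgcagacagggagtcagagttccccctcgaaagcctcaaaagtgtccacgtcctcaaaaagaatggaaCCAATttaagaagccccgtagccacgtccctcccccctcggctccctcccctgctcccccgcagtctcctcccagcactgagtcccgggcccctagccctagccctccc
Col3a1 promoter: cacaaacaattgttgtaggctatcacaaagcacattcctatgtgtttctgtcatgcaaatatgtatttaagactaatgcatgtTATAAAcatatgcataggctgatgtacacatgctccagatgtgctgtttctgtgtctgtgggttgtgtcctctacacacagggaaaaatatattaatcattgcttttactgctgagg
Col18a1 promoter: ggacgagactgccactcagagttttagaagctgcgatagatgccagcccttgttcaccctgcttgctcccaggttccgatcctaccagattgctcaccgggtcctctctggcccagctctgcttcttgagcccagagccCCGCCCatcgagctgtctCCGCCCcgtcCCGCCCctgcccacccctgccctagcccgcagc
The Col1a2 window holds 1 CCAAT and 1 GGGCGG, the Col3a1 window 1 TATAAA, and the Col18a1 window 3 copies of GGGCGG read on the other strand. RefSeq promoters of 300 bases were found for 33 of the 41 genes, as 36 windows. TATAAA was in 5 of them, or 13.89%, against 13.62% of all 32851 promoters, CCAAT in 13 (36.11% against 37.41%) and GGGCGG in 22 (61.11% against 35.66%), searched on both strands. These matches describe letters in a window, at any distance from the start, and say nothing of binding or of a working box. Several chains lie in pairs. Col4a1 and Col4a2 start head to head on chromosome 8, and the gap between their full RefSeq gene spans is -85 bases, an overlap. For the first start listed for each gene the overlap is narrower, 22 bases of the first exons. These bases are in capitals here within chr8:11312801-11312830 of GRCm38.p6 on the plus strand.
Col4a1 and Col4a2 start: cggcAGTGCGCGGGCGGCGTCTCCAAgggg
Col4a6 and Col4a5 start head to head on chromosome X, with 1342 bases between the first listed starts and 1274 between the gene spans. The gene spans of Col3a1 and Col5a2 lie 24624 bases apart on chromosome 1.

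Of the 41 genes, 24 were well above background on all 7 arrays, 17 on 1 to 6 of them and 0 on none. The number well above background was 30 in GFP-positive and 25 in GFP-negative cells of E8.5, 33 in gated, 40 in other GFP-positive and 32 in GFP-negative cells of E9.5, and 32 in gated and 38 in other GFP-positive cells of E11.5. As a share this was 92.7% in the other GFP-positive cells of E11.5, where 75.6% of all genes were well above background, and 97.6% against 85.4% in those of E9.5. In gated cells of E11.5 it was 78.0% against 74.5%. The E8.5 shares lay near those of all genes, at 73.2% against 72.9% in GFP-positive and 61.0% against 60.2% in GFP-negative cells. For E9.5 the remaining shares were 80.5% against 74.4% in gated and 78.0% against 75.6% in GFP-negative cells. Of the 41 members, 19 had their highest level in the other GFP-positive cells of E11.5. The share of all genes with their highest level there was not computed, so this count describes the members alone.

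**Figure D1:**
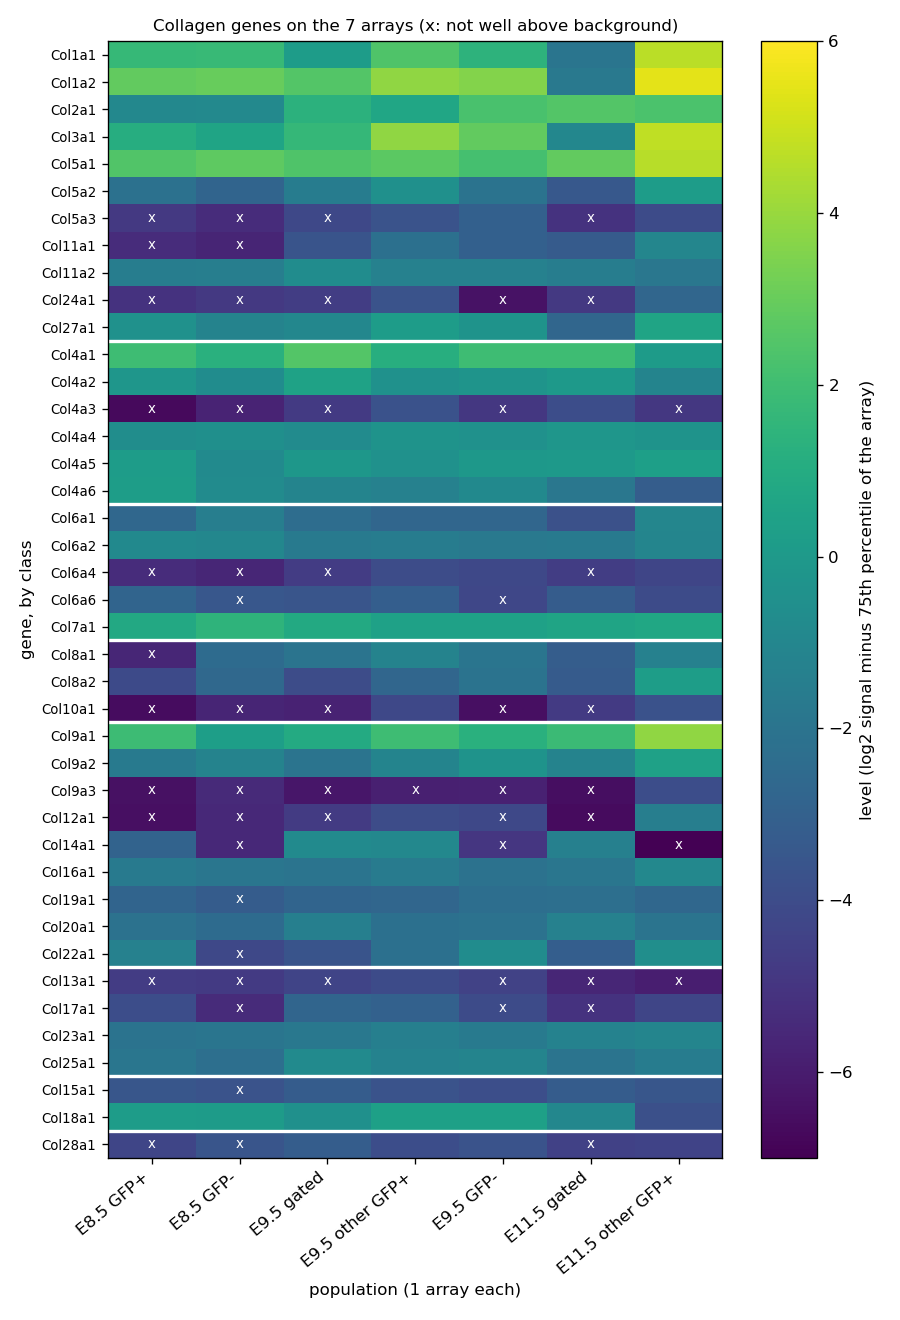
Level of each of the 41 collagen genes (rows, grouped by class between white lines) on each of the 7 arrays (columns), as log2 signal minus the 75th percentile of the array; x marks a value not well above background. Col1a1, Col1a2, Col3a1 and Col5a1 are brightest in other GFP-positive cells of E11.5, and Col1a1, Col1a2 and Col3a1 are darkest in the gated cells beside them.

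Collagen genes stood apart most between the 2 sorted populations of the E11.5 kidney. A gene was measured in a comparison when it was well above background on at least 1 of the 2 arrays and counted as higher or lower from 4-fold, and a fold against a value not well above background is a bound, written as at least. Of 40 measured members, 11 were at least 4-fold lower in gated than in other GFP-positive cells of E11.5 (27.5%, against 3.25% of all measured genes), and 2 were at least 4-fold higher (5%, against 2.16%). The median difference of the measured members was -0.73 on the log2 scale, and that of all genes 0.15. From 2-fold, 18 were lower and 5 higher (45% and 12.5%, against 9.46% and 10.6% of all genes). In a bulk sort, fewer cells of a type and less RNA per cell cannot be told apart in any of these differences. With normexp background correction the lower count was 6 of 38 and the higher count 0, where 0.946% of all genes were lower and 0.575% higher. It brought each of the 29 4-fold differences of the named chains over all comparisons nearer to 0, and 12 of them stayed past 4-fold. Values of those that did not are given with the genes.

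The same gate at E9.5 left the chains closer together. Of 40 measured members 2 were at least 4-fold lower in gated than in other GFP-positive cells (5%, against 1.19% of all genes) and 0 were higher (0.841% of all genes), and from 2-fold 9 were lower and 1 higher (9.4% and 5.15% of all genes). The medians were -0.39 for the members and -0.15 for all genes. Between stages, 4 of 34 members were at least 4-fold lower in gated cells of E11.5 than in gated cells of E9.5 (11.8%, against 3% of all genes) and 0 were higher (1.28%). From 2-fold 10 were lower and 1 higher, against 11.9% and 6.07% of all genes. Among the other GFP-positive cells, 3 of 41 were higher at E11.5 than at E9.5 (7.32%, against 1.6%) and 2 were lower (4.88%, against 3.44%), and from 2-fold 11 were higher and 6 lower, against 6.38% and 22.2% of all genes. There the median was 0.31 for the members and -0.36 for all genes. Quantile scaling moved that median of all genes to -0.04. With it 5 members were higher and 2 lower (12.5% and 5%, against 3.27% and 1.85% of all genes). With no scaling the counts were also 5 and 2 (12.2% and 4.88%, against 1.98% and 2.52%).

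In the comparisons with GFP-negative cells few chains stood apart. At E8.5, 1 of 29 members was higher and 1 lower in GFP-positive than in GFP-negative cells (3.45% each, against 0.991% and 2.71% of all genes). At E9.5, 1 of 35 was higher and 1 lower in gated than in GFP-negative cells (2.86% each, against 1.18% and 1.87%). In other GFP-positive against GFP-negative cells of E9.5, 1 of 40 was higher (2.5%, against 0.797%) and 0 were lower (1.27% of all genes). These shares rest on single genes. From 2-fold, 2 members were higher and 3 lower at E8.5, against 7.83% and 6.77% of all genes. For gated against GFP-negative cells of E9.5 the 2-fold counts were 2 higher and 7 lower, against 5.67% and 6.42%, and for other GFP-positive against GFP-negative cells 5 higher and 2 lower, against 8.58% and 5.17%. The median of the members was 0.17 at E8.5, -0.07 for gated against GFP-negative cells of E9.5, which became 0.03 with normexp, and 0.21 for other GFP-positive against GFP-negative cells, which became -0.0028 without scaling. With quantile scaling the split became 0 higher to 1 lower at E8.5 (0.675% and 2.63% of all genes). For gated against GFP-negative cells of E9.5 it became 1 to 2 (1.25% and 2.04% of all genes). Several of the 7 comparisons share an array, so their counts are not independent of each other.

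**Figure D2:**
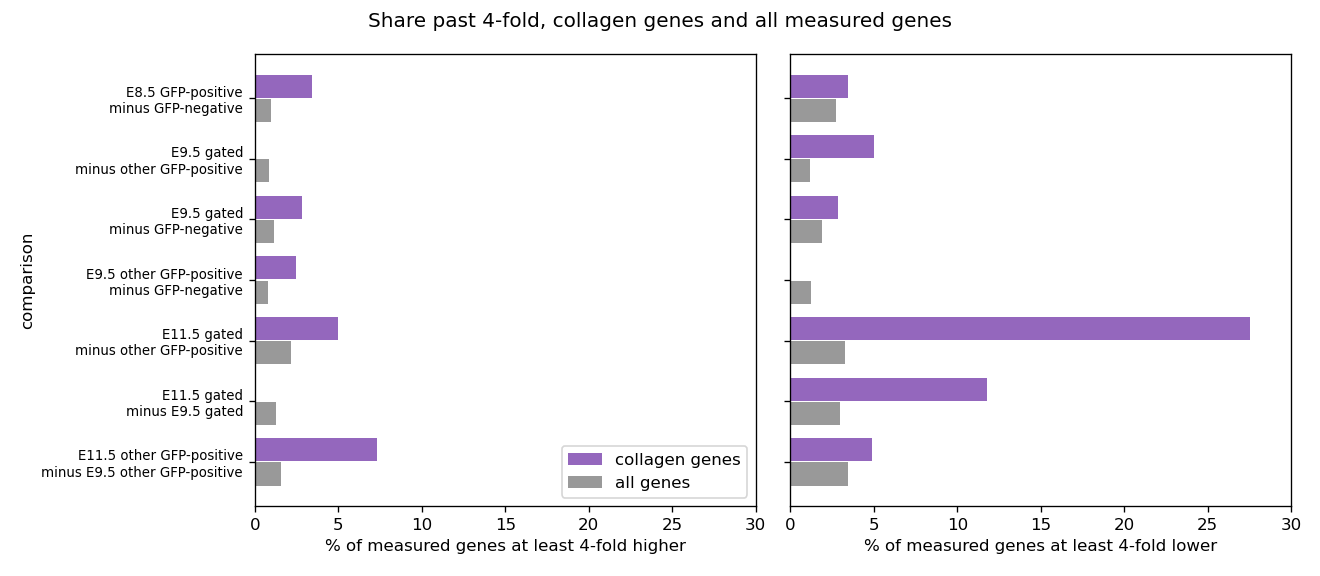
Percent of measured genes at least 4-fold higher (left) or lower (right) in the first-named population of each of the 7 comparisons (rows), for the collagen genes and for all genes; bars start at 0. The longest bar is the 27.5% of collagen genes lower in gated than in other GFP-positive cells of E11.5, where the bar of all genes is 3.25%.

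The type I chains, the main material of interstitial fibrils, and the type III chain, their partner in soft tissue, were low in the E11.5 gate and high outside it. Col1a2 (NM_007743) had levels of 2.90 in GFP-positive and 2.99 in GFP-negative cells of E8.5, 2.53 in gated, 3.86 in other GFP-positive and 3.60 in GFP-negative cells of E9.5, and -1.72 in gated and 5.49 in other GFP-positive cells of E11.5. In signal units the E11.5 values were 75.9 in gated and 13050 in other GFP-positive cells. The gated cells of E11.5 held the lowest Col1a2 level of the 7 populations and the other GFP-positive cells the highest, 149-fold apart (log2 difference -7.21). Col1a1, the partner chain in the type I helix (NM_007742, probe on chromosome 11), had levels of 1.72 in GFP-positive and 1.75 in GFP-negative cells of E8.5, 0.18 in gated, 2.43 in other GFP-positive and 1.42 in GFP-negative cells of E9.5, and -1.94 in gated and 4.66 in other GFP-positive cells of E11.5, 96.5-fold lower in the gate at E11.5 (log2 difference -6.59). Its order of populations at E11.5 and E9.5 was that of Col1a2. Col3a1 (NM_009930, probe on chromosome 1) stood at 1.10 in GFP-positive and 0.61 in GFP-negative cells of E8.5, 1.65 in gated, 3.82 in other GFP-positive and 2.86 in GFP-negative cells of E9.5, and -1.0 in gated and 4.75 in other GFP-positive cells of E11.5, a difference of -5.76 at E11.5 or 54.1-fold. All 3 genes were thus lower in gated than in other GFP-positive cells at both stages, with E9.5 differences of -2.26 for Col1a1 (4.78-fold), -2.16 for Col3a1 (4.48-fold) and -1.33 for Col1a2 (2.52-fold). Across stages the gated cells of E11.5 lay below those of E9.5, by log2 differences of -4.25 for Col1a2, -2.66 for Col3a1 and -2.11 for Col1a1 (-1.44 with normexp, short of 4-fold). The other GFP-positive cells went the other way for Col1a1, which was 4.67-fold higher at E11.5 than at E9.5. With normexp the E11.5 gate differences were -6.44, -5.75 and -5.19 for Col1a2, Col1a1 and Col3a1, and each of these genes has 1 probe.

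**Figure D3:**
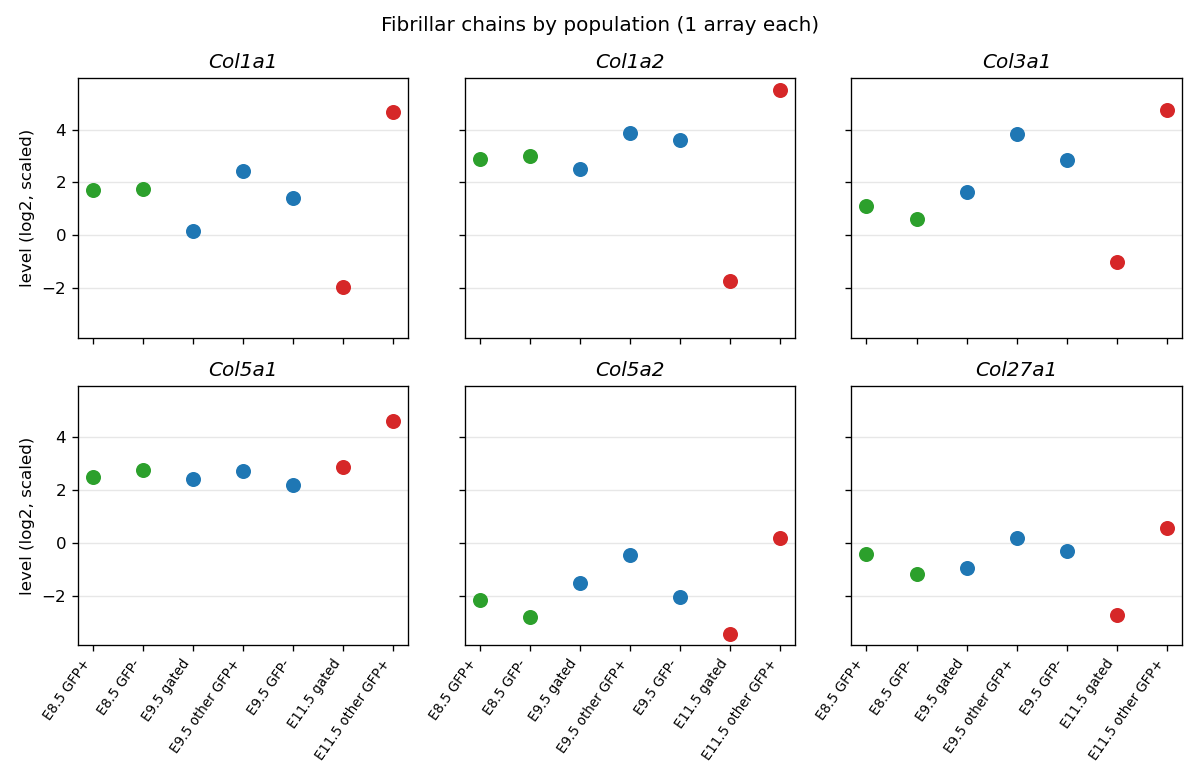
Level (log2 signal minus the 75th percentile of the array) of 6 fibrillar chain genes in each of the 7 populations; each point is 1 array, with E8.5 in green, E9.5 in blue and E11.5 in red. In the E11.5 pair every panel has the gated point below that of the other GFP-positive cells, by 149-fold for Col1a2 and 3.33-fold for Col5a1.

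Type V collagen, which starts type I fibrils and limits their width, split by chain. Col5a2 had levels of -2.17 in GFP-positive and -2.80 in GFP-negative cells of E8.5, -1.52 in gated, -0.46 in other GFP-positive and -2.05 in GFP-negative cells of E9.5, and -3.43 in gated and 0.18 in other GFP-positive cells of E11.5, and was 12.2-fold lower in the gate at E11.5, a log2 difference of -3.60 (-2.07 with normexp). Col5a1 stood between 2.19 and 2.86 on 6 arrays and at 4.60 in other GFP-positive cells of E11.5. In full its levels were 2.49 in GFP-positive and 2.77 in GFP-negative cells of E8.5, 2.43 in gated, 2.74 in other GFP-positive and 2.19 in GFP-negative cells of E9.5, and 2.86 in gated and 4.60 in other GFP-positive cells of E11.5, and its E11.5 difference was -1.74, or 3.33-fold, short of the 4-fold mark. The E11.5 gate held the lowest Col5a2 level of the 7 populations, while its Col5a1 level was no lower than at the earlier stages. Col5a3 was dim, at -4.86 in GFP-positive and -5.34 in GFP-negative cells of E8.5, -4.17 in gated, -3.68 in other GFP-positive and -3.01 in GFP-negative cells of E9.5, and -5.11 in gated and -4.05 in other GFP-positive cells of E11.5, and was well above background only in other GFP-positive cells of both stages and in GFP-negative cells of E9.5.

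Of the chains known best from cartilage, Col2a1 (type II) was not lower in the gate at either stage. Its levels were -0.91 in GFP-positive and -0.89 in GFP-negative cells of E8.5, 1.36 in gated, 0.67 in other GFP-positive and 2.26 in GFP-negative cells of E9.5, and 2.54 in gated and 2.31 in other GFP-positive cells of E11.5. The 2 E11.5 populations differed by 0.24, and both E8.5 populations lay below all later ones. Col11a1 and Col11a2, chains of type XI that join type II fibrils, went apart from each other. Col11a1 was not well above background at E8.5 and had levels of -5.36 in GFP-positive and -5.64 in GFP-negative cells of E8.5, -3.64 in gated, -2.22 in other GFP-positive and -3.02 in GFP-negative cells of E9.5, and -3.27 in gated and -1.01 in other GFP-positive cells of E11.5, 4.77-fold lower in the gate at E11.5 and 2.67-fold lower at E9.5. With normexp the E11.5 log2 difference was -1.09 in place of -2.25, short of 4-fold. Col11a2 stayed within a range of 1.18, at -1.51 in GFP-positive and -1.42 in GFP-negative cells of E8.5, -0.67 in gated, -1.30 in other GFP-positive and -1.28 in GFP-negative cells of E9.5, and -1.50 in gated and -1.85 in other GFP-positive cells of E11.5. Its gate differences were 0.63 at E9.5 and 0.35 at E11.5. Col27a1, a fibrillar chain also found in cartilage, followed the type I genes: it stood at -0.40 in GFP-positive and -1.19 in GFP-negative cells of E8.5, -0.96 in gated, 0.20 in other GFP-positive and -0.31 in GFP-negative cells of E9.5, and -2.72 in gated and 0.58 in other GFP-positive cells of E11.5, 9.81-fold lower in gated cells of E11.5 (log2 difference -3.29, or -2.08 with normexp). Col24a1 was well above background only in other GFP-positive cells of E9.5 and E11.5, within levels of -5.11 in GFP-positive and -4.83 in GFP-negative cells of E8.5, -4.64 in gated, -3.68 in other GFP-positive and -6.37 in GFP-negative cells of E9.5, and -4.84 in gated and -2.70 in other GFP-positive cells of E11.5, and at E11.5 it was at least 4.43-fold lower in gated cells. With normexp that log2 difference was -0.40, short of 4-fold. Over the class, 7 of 11 measured fibrillar genes were at least 4-fold lower in the E11.5 gate and 0 higher, with a median of -2.25, and 9 were at least 2-fold lower. Of all measured genes 3.25% were at least 4-fold and 9.46% at least 2-fold lower, with a median of 0.15. Col2a1 and Col11a2 were the 2 that were not. At E9.5, 2 of 11 were at least 4-fold lower and 6 at least 2-fold lower, with a median of -1.06, against 1.19% and 9.4% of all genes and a median of -0.15.

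Type IV chains make the basement membrane, and 3 of them ran opposite to the fibrillar ones in the E11.5 gate, by less than 4-fold. Col4a1, read by 10 spots of 1 probe (8 were used in other GFP-positive cells of E11.5), had levels of 1.98 in GFP-positive and 1.23 in GFP-negative cells of E8.5, 2.52 in gated, 1.17 in other GFP-positive and 1.95 in GFP-negative cells of E9.5, and 1.94 in gated and 0.14 in other GFP-positive cells of E11.5. The standard deviation over its spots was between 0.03 and 0.08 on each array. Col4a1 was highest in the gated cells of E9.5 and lowest in the other GFP-positive cells of E11.5, and the gate was 3.49-fold higher at E11.5 (log2 difference 1.80) and 2.55-fold higher at E9.5 (1.35). Col4a2, which winds with Col4a1 in the same helix and starts beside it, stood at -0.16 in GFP-positive and -0.69 in GFP-negative cells of E8.5, 0.47 in gated, -0.43 in other GFP-positive and -0.26 in GFP-negative cells of E9.5, and 0.05 in gated and -1.15 in other GFP-positive cells of E11.5. It had the same highest and lowest populations, with gate differences of 1.20 at E11.5 and 0.91 at E9.5. Col4a6, a chain of another type IV network, was at 0.24 in GFP-positive and -0.71 in GFP-negative cells of E8.5, -1.15 in gated, -1.28 in other GFP-positive and -0.84 in GFP-negative cells of E9.5, and -1.82 in gated and -3.19 in other GFP-positive cells of E11.5, 2.58-fold higher in the E11.5 gate. Its second probe gave -2.31 in GFP-positive and -2.41 in GFP-negative cells of E8.5, -2.22 in gated, -2.49 in other GFP-positive and -2.31 in GFP-negative cells of E9.5, and -2.54 in gated and -2.71 in other GFP-positive cells of E11.5, a narrower range, and with the mean of both probes the E11.5 difference was 0.77.

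The chains that join the network of the mature glomerulus differed little or were dim. Col4a5 lay within -0.76 and 0.34, at 0.17 in GFP-positive and -0.76 in GFP-negative cells of E8.5, -0.14 in gated, -0.40 in other GFP-positive and -0.06 in GFP-negative cells of E9.5, and -0.02 in gated and 0.34 in other GFP-positive cells of E11.5. Col4a3 was well above background only in other GFP-positive cells of E9.5 and gated cells of E11.5, among levels of -6.68 in GFP-positive and -5.72 in GFP-negative cells of E8.5, -4.79 in gated, -3.71 in other GFP-positive and -4.89 in GFP-negative cells of E9.5, and -3.94 in gated and -4.89 in other GFP-positive cells of E11.5. The brightest Col4a4 probe was nearly even, at -0.61 in GFP-positive and -0.51 in GFP-negative cells of E8.5, -0.71 in gated, -0.30 in other GFP-positive and -0.44 in GFP-negative cells of E9.5, and -0.16 in gated and -0.33 in other GFP-positive cells of E11.5. A dimmer Col4a4 probe was well above background only in gated and other GFP-positive cells of E9.5, at -4.14 and -4.09. A further one was well above background on 6 arrays, at -3.01 in gated and -2.87 in other GFP-positive cells of E11.5. Of 6 measured type IV genes 0 passed 4-fold in the E11.5 gate, 3 were at least 2-fold higher (10.6% of all genes) and 0 lower, with a median of 1.08.

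Type VI forms beaded microfilaments around cells. Col6a1 had levels of -2.68 in GFP-positive and -1.43 in GFP-negative cells of E8.5, -2.36 in gated, -2.69 in other GFP-positive and -2.72 in GFP-negative cells of E9.5, and -3.77 in gated and -1.05 in other GFP-positive cells of E11.5, highest in other GFP-positive cells of E11.5 and lowest in the gated cells beside them, 6.60-fold apart. With normexp that log2 difference was -1.10 in place of -2.72, short of 4-fold. Col6a2, its partner, kept within a range of 0.90 over the 7 arrays. Col6a4 and Col6a6 were dim, above background on 3 and 5 arrays, and Col7a1, the anchoring fibril chain of skin, had its highest level, 1.43, in GFP-negative cells of E8.5. The short-chain type VIII genes, which form hexagonal sheets such as that of the cornea, lay lower in the E11.5 gate, past 4-fold for Col8a2 alone. Col8a2 was at -4.06 in GFP-positive and -2.63 in GFP-negative cells of E8.5, -3.96 in gated, -2.71 in other GFP-positive and -2.04 in GFP-negative cells of E9.5, and -3.27 in gated and 0.22 in other GFP-positive cells of E11.5, 11.2-fold lower in the E11.5 gate and 7.62-fold higher in the other GFP-positive cells of E11.5 than of E9.5. With the mean of its 2 probes these log2 differences were -1.97 and 1.26 in place of -3.48 and 2.93, both short of 4-fold, and its second probe was not well above background on any array. With normexp they were -2.04 and 1.91, the second short of 4-fold. Col8a1 differed at E8.5, where it was not well above background in GFP-positive cells and at least 6.31-fold lower there than in GFP-negative cells, a log2 difference of -2.66 that normexp brought to -0.74. Its levels were -5.61 in GFP-positive and -2.44 in GFP-negative cells of E8.5, -1.98 in gated, -1.19 in other GFP-positive and -1.94 in GFP-negative cells of E9.5, and -3.15 in gated and -1.29 in other GFP-positive cells of E11.5, and at E11.5 it was 3.62-fold lower in the gate, short of 4-fold. Col10a1, the chain of hypertrophic cartilage, was well above background on 2 arrays, the other GFP-positive cells of E9.5 and E11.5.

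FACIT collagens do not form fibrils themselves but sit on the surface of fibrils of other types, and in this class the members went both ways. Col14a1, which coats type I fibrils, was well above background in every GFP-positive population except the other GFP-positive cells of E11.5. Its levels were -2.86 in GFP-positive and -5.50 in GFP-negative cells of E8.5, -0.80 in gated, -0.93 in other GFP-positive and -4.97 in GFP-negative cells of E9.5, and -1.34 in gated and -6.98 in other GFP-positive cells of E11.5. Both GFP-negative values and the last one were below that mark. It was at least 13.0-fold higher in the gate at E11.5, and at E9.5 at least 12.4-fold higher in gated and at least 11.3-fold higher in other GFP-positive than in GFP-negative cells, and in other GFP-positive cells it was at least 17.2-fold lower at E11.5 than at E9.5. With normexp all 4 were short of 4-fold: the log2 differences were 1.39 in the E11.5 gate, 1.60 and 1.57 for gated and other GFP-positive against GFP-negative cells of E9.5, and -1.65 across stages. Its second, dimmer probe stood at -4.26 in GFP-positive and -3.59 in GFP-negative cells of E8.5, -3.75 in gated, -2.38 in other GFP-positive and -4.0 in GFP-negative cells of E9.5, and -3.87 in gated and -5.01 in other GFP-positive cells of E11.5, also lower in other GFP-positive cells of E11.5 than in gated ones, though higher in other GFP-positive than in gated cells of E9.5. On that probe the gated and GFP-negative cells of E9.5, both well above background, lay close together. Col12a1, its close relative on the same fibrils, had the opposite pattern at E11.5, with levels of -6.48 in GFP-positive and -5.51 in GFP-negative cells of E8.5, -4.72 in gated, -3.99 in other GFP-positive and -4.17 in GFP-negative cells of E9.5, and -6.61 in gated and -1.44 in other GFP-positive cells of E11.5. It was well above background only in other GFP-positive cells of both stages, at least 12.8-fold lower in the E11.5 gate than outside it, and in other GFP-positive cells 5.85-fold higher at E11.5 than at E9.5. With normexp these log2 differences were -1.14 and 1.0 in place of -3.68 and 2.55, both short of 4-fold. A probe that the files describe as type XII alpha 1 under another name was well above background on all 7 arrays. It stood at -2.22 in gated and -1.34 in other GFP-positive cells of E11.5, and at -1.03 in other GFP-positive cells of E9.5, so that it was lower, not higher, at the later stage.

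Col22a1, known from the junction of muscle and tendon, stood at -1.30 in GFP-positive and -4.18 in GFP-negative cells of E8.5, -3.62 in gated, -2.21 in other GFP-positive and -0.66 in GFP-negative cells of E9.5, and -3.12 in gated and -0.58 in other GFP-positive cells of E11.5. It was at least 4.46-fold higher in GFP-positive than in GFP-negative cells of E8.5, 7.80-fold lower in gated than in GFP-negative cells of E9.5, and 5.81-fold lower in gated than in other GFP-positive cells of E11.5. Its E8.5 GFP-negative value was not well above background. With normexp these 3 log2 differences were 0.91, -1.46 and -1.36, each short of 4-fold. Col9a1, of the type IX that coats cartilage fibrils, was just short of the 4-fold mark at E11.5, 3.91-fold lower in the gate, and Col24a1 with at least 4.43-fold was just past it. A second, dimmer Col9a1 probe was well above background on all 7 arrays and not lower in that gate. It stood at -2.52 in gated and -2.72 in other GFP-positive cells of E11.5. Col9a2 was 3.12-fold lower in the E11.5 gate, and Col9a3 was well above background on 1 array only, the other GFP-positive cells of E11.5. Col16a1, Col19a1 and Col20a1 ranged by 0.95 to 1.17 over the 7 arrays in their brightest probe. A second Col19a1 probe was well above background only in other GFP-positive cells of E11.5, at -3.57, and stood at -6.72 in the gated cells. Of 9 measured FACIT genes, 1 was at least 4-fold higher and 2 lower in the E11.5 gate, and 5 were at least 2-fold lower, with a median of -1.19, against 2.16%, 3.25% and 9.46% of all genes.

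Among the multiplexins, which are proteoglycans of basement membrane zones, Col18a1, the parent of endostatin, was the second member higher in the E11.5 gate. Its levels were 0.20 in GFP-positive and 0.16 in GFP-negative cells of E8.5, -0.46 in gated, 0.41 in other GFP-positive and 0.41 in GFP-negative cells of E9.5, and -0.97 in gated and -3.85 in other GFP-positive cells of E11.5, between -0.46 and 0.41 in the 5 populations of E8.5 and E9.5 and lowest in the other GFP-positive cells of E11.5. The gate was 7.38-fold higher at E11.5 (log2 difference 2.88), and in the other GFP-positive cells Col18a1 was 19.1-fold lower at E11.5 than at E9.5. A second probe gave -1.50 in GFP-positive and -1.05 in GFP-negative cells of E8.5, -2.24 in gated, -0.77 in other GFP-positive and -0.88 in GFP-negative cells of E9.5, and -2.52 in gated and -4.45 in other GFP-positive cells of E11.5, with its lowest value in the same population. With normexp the E11.5 gate difference was 1.35, short of 4-fold, and the difference across stages -2.38 in place of -4.26. Col15a1, the other multiplexin, ranged by 0.66 in its brightest probe, the repeat probe printed above, and more widely in its other 2. Of the transmembrane chains, Col17a1, the hemidesmosome collagen of epithelia, stood at -3.95 in GFP-positive and -5.40 in GFP-negative cells of E8.5, -2.74 in gated, -2.97 in other GFP-positive and -4.02 in GFP-negative cells of E9.5, and -5.10 in gated and -4.27 in other GFP-positive cells of E11.5, and was at least 5.16-fold lower in gated cells of E11.5 than of E9.5. With normexp that log2 difference was -0.43 in place of -2.37, short of 4-fold. Col13a1 was well above background on 1 array, and the brightest probes of Col23a1 and Col25a1 on all 7, within ranges of 0.96 and 1.46. Of their other probes all but 1 ranged more widely, and a second Col23a1 probe stood at -3.24 in gated and -1.38 in other GFP-positive cells of E11.5. Col28a1, a chain outside these classes, was well above background on 4 arrays and at most -3.15.

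**Figure D4:**
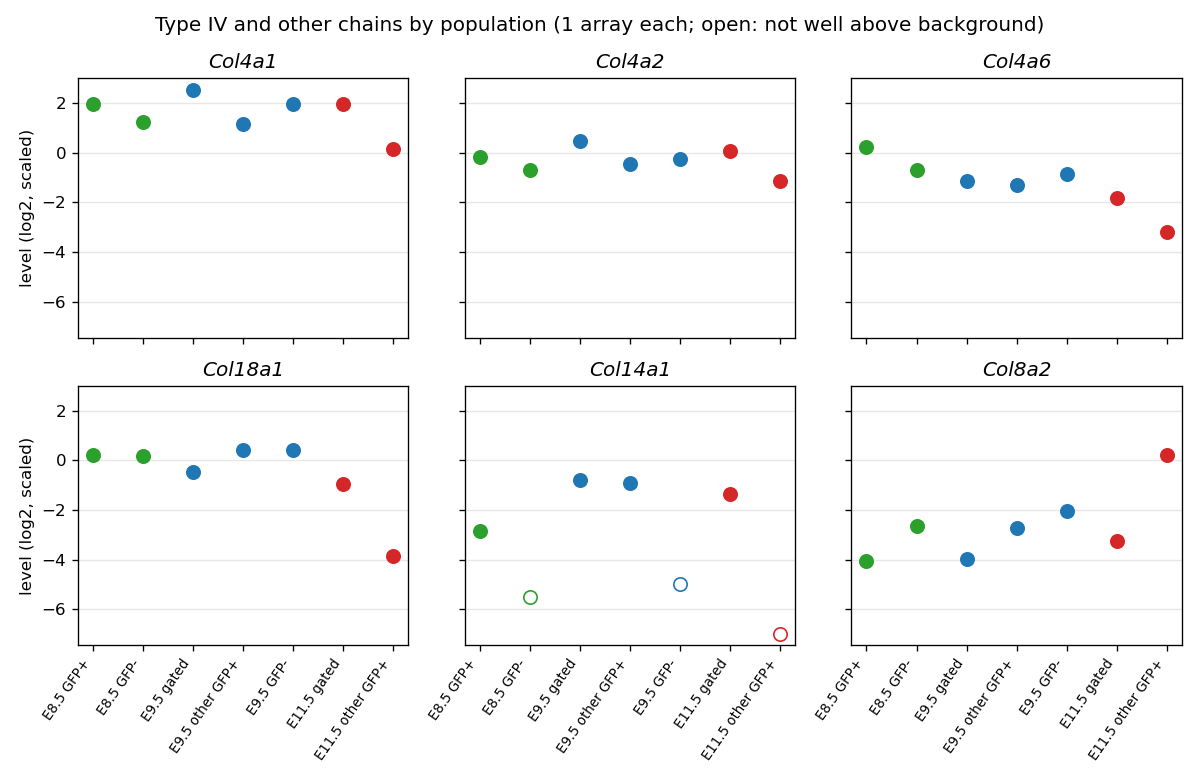
Level (log2 signal minus the 75th percentile of the array) of 6 chain genes outside the fibrillar class in each of the 7 populations; each point is 1 array, open where not well above background, with E8.5 in green, E9.5 in blue and E11.5 in red. At E11.5 the gated point lies above that of the other GFP-positive cells for the 3 type IV genes, Col18a1 and Col14a1, and below it for Col8a2.

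**Figure D5:**
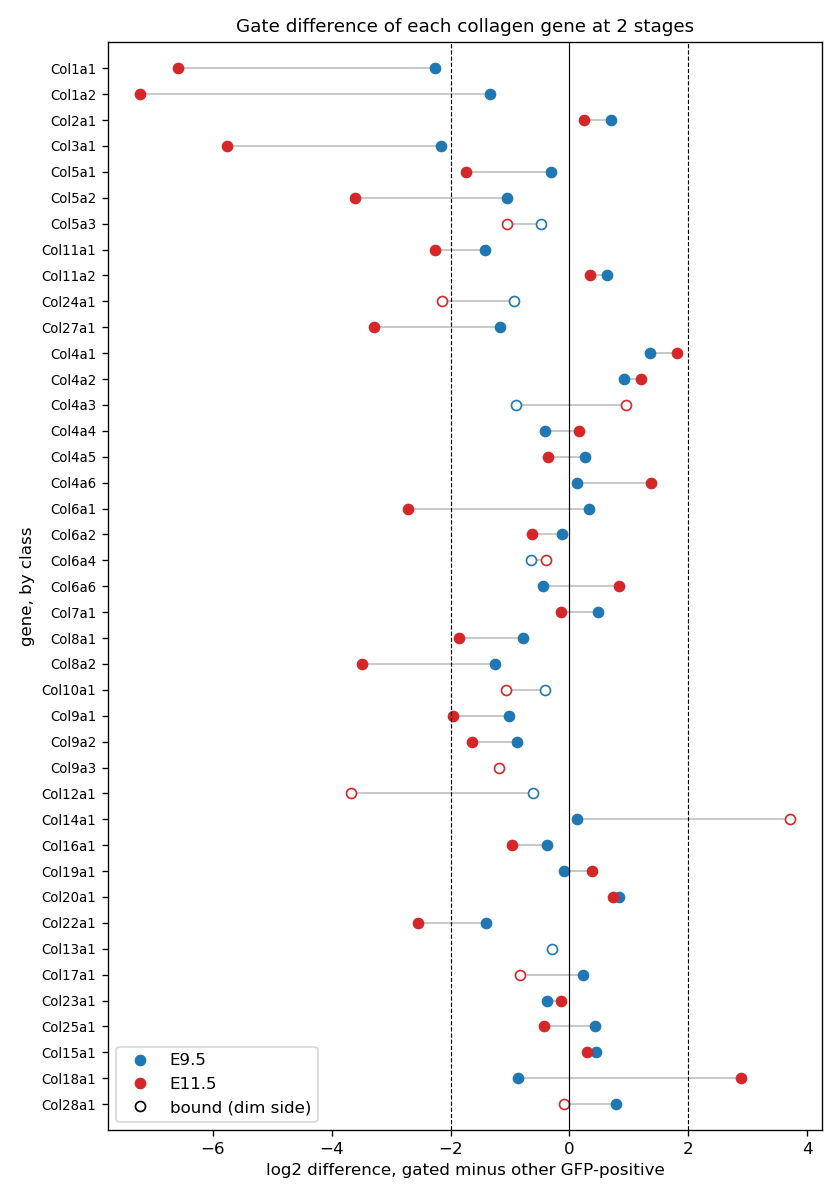
Log2 difference of each collagen gene (rows, by class) between gated and other GFP-positive cells at E9.5 (blue) and E11.5 (red); open points are bounds, dashed lines mark 4-fold, and a stage with no point was not measured. Col1a2, Col1a1 and Col3a1 reach -7.21, -6.59 and -5.76 at E11.5, and Col14a1 and Col18a1 lie past 4-fold on the other side.

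The genes that make, trim and bind collagen were read next to the chains, from lists chosen with earlier results of these data known. The chaperone Serpinh1, which holds every procollagen helix, was high and even, between 5.30 and 5.94 on the 7 arrays, and of 20 folding and modification genes 2 were at least 4-fold lower in the E11.5 gate and 0 higher, with a median of -0.49. Over all genes, 3.25% were that much lower and 2.16% higher, with a median of 0.15, and the same shares apply beside the other lists. The 2 folding genes were P3h3, of the prolyl hydroxylase family, at -3.17 in gated and -0.30 in other GFP-positive cells of E11.5 (7.31-fold), and Colgalt2, which adds galactose to collagen, at -3.77 in gated and -1.14 in other GFP-positive cells of E11.5 (6.21-fold). Of 13 genes for cleavage and cross-linking, 2 were at least 4-fold lower and 0 higher. Pcolce, which speeds removal of the procollagen C-propeptide, stood at 0.80 in GFP-positive and 0.15 in GFP-negative cells of E8.5, -1.44 in gated, 2.67 in other GFP-positive and 1.24 in GFP-negative cells of E9.5, and -1.69 in gated and 3.01 in other GFP-positive cells of E11.5. It was 25.8-fold lower in the gate at E11.5, 17.3-fold lower at E9.5, and 6.45-fold lower in gated than in GFP-negative cells of E9.5. Adamts3, a procollagen N-proteinase, was at least 4.71-fold lower in the E11.5 gate.

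Of 8 measured collagen receptors, 2 were at least 4-fold lower in the E11.5 gate and 0 higher. Ddr2, a receptor kinase for fibrillar collagen, had levels of -2.78 in GFP-positive and -3.48 in GFP-negative cells of E8.5, -2.10 in gated, 0.98 in other GFP-positive and -0.75 in GFP-negative cells of E9.5, and -6.32 in gated and 1.24 in other GFP-positive cells of E11.5, and was at least 81.9-fold lower in the gate at E11.5 and 8.46-fold at E9.5. At both stages its highest level was in other GFP-positive cells, as for Col1a1 and Col3a1. The integrin chain Itga10 was 6.56-fold lower at E11.5. Among 14 fibril-binding proteins, 3 were at least 4-fold lower and 0 higher, all small proteoglycans: Lum (at least 11.7-fold), Bgn (11.3-fold) and Dcn (at least 4.37-fold). Lum was also at least 33.1-fold lower in gated cells of E11.5 than of E9.5, and 10.1-fold lower in GFP-positive than in GFP-negative cells of E8.5, where Thbs1 and Postn were lower too (4.97-fold and at least 4.90-fold). Partners of type IV in the basement membrane split at E11.5, with 3 of 11 at least 4-fold lower in the gate, 0 higher by that fold and 3 at least 2-fold higher (10.6% of all genes). The median of these partners was 0.07, and that of all genes 0.15. The lower ones were the laminin chain Lama2 (10.6-fold) and the nidogens Nid2 (7.61-fold) and Nid1 (5.08-fold), which link laminin to type IV. The higher ones were Lama5 at 1.11 in gated and -0.36 in other GFP-positive cells of E11.5, Lamb2 at -0.69 in gated and -1.86 in other GFP-positive cells of E11.5 and Lamc1 at 2.78 in gated and 1.66 in other GFP-positive cells of E11.5.

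The other comparisons held fewer such genes past 4-fold. In gated against other GFP-positive cells of E9.5, P4ha3, a prolyl hydroxylase subunit, was 5.86-fold lower. Against GFP-negative cells of E9.5, the gate was 7.54-fold higher for the laminin chain Lama4 and 4.46-fold lower for Postn, and the other GFP-positive cells were 4.08-fold higher for P4ha3. From E9.5 to E11.5 the gated cells were lower at the later stage for Ddr2 (at least 8.13-fold), Nid2 (7.66-fold), Dcn (at least 5.68-fold), Nid1 (5.42-fold), Loxl4 (at least 4.92-fold), Lama4 (4.81-fold) and P3h2 (4.35-fold), and higher for P4ha3 (4.86-fold). In the other GFP-positive cells the later stage was higher for the cross-linking enzyme Loxl3 (9.93-fold), Lama2 (8.40-fold), Colgalt2 (5.20-fold) and Itga10 (4.65-fold), and lower for Postn (6.42-fold), Lama5 (5.19-fold) and Itga1 (at least 4.55-fold).

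Most genes of a marker list for renal stroma and mesenchyme were lower in the gate, as most fibrillar chains were. At E9.5 the cells came from the caudal embryo, so these genes do not mark renal stroma alone there. The mean level of Pdgfra, on which cells were sorted, Foxd1, Tbx18, Twist1 and Prrx1 was -3.13 in gated and 3.33 in other GFP-positive cells of E11.5, and -0.15 in gated, 2.22 in other GFP-positive and 0.90 in GFP-negative cells of E9.5. All 5 were well above background on every array except that of gated cells of E11.5, where 2 were, and Pdgfra, Tbx18 and Twist1 were not. In the gate, 4 of 5 were at least 4-fold lower at E11.5 and 4 of 5 at E9.5, Pdgfra among them both times. The exceptions were Prrx1 at E11.5, 3.83-fold lower, and Foxd1 at E9.5, which went the other way, at 2.67 in gated and 1.89 in other GFP-positive cells. Nephron progenitor markers (Six2, Wt1, Pax2, Eya1 and Cited1) averaged 5.38 in gated and 1.74 in other GFP-positive cells of E11.5, and all 5 were well above background on both. Six2, Pax2 and Cited1 were at least 4-fold higher in that gate, Wt1 was 1.88-fold higher, and Eya1 lay between 8.65 and 9.01 on all 7 arrays. At E9.5 they averaged 4.24 in gated, 2.74 in other GFP-positive and 1.98 in GFP-negative cells, where Six2 and Pax2 were at least 4-fold higher in gated than in other GFP-positive cells and Cited1 was 2.42-fold lower. Markers of endothelium averaged -3.14 in gated and -3.35 in other GFP-positive cells of E11.5, with Cdh5 and Tek not well above background on either array. At E9.5 they averaged -0.54 in gated, -0.94 in other GFP-positive and -1.08 in GFP-negative cells. Red blood cell markers went with the GFP-negative sorts, at -2.48 in GFP-positive and 6.34 in GFP-negative cells of E8.5, and at -3.85 in gated, -1.82 in other GFP-positive and 4.37 in GFP-negative cells of E9.5. Neural tube markers averaged -3.24 in gated, -2.89 in other GFP-positive and 0.82 in GFP-negative cells of E9.5. The part of these cell types in the collagen differences was not tested.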

How the data were processed

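The intensity of every spot was extracted by the authors, and the submitters' processing notes name Agilent Feature Extraction 10.7.3.1. Per the file headers, this deposited processed intensity is background-subtracted and detrended on a linear scale, with probe positions in mm9. The deposited value table holds the same intensity, unscaled, with column medians of 35.2 and 30.6 (GFP-positive and GFP-negative, E8.5), 45.6 in gated, 46.9 in other GFP-positive and 51.3 in GFP-negative cells (E9.5) and 36.7 and 40.8 (gated and other GFP-positive, E11.5). From 59305 non-control spots per array, flagged spots were left out, levels were taken as log2 minus the 75th percentile of the array, and the spots of a probe were averaged. A probe was well above background where at least 0.5 of its spots were, and a gene was read by its brightest probe over the 7 arrays. A side not well above background was set at the higher of its own level and the lowest well-above level of its array (between -5.12 and -3.46), and a bound with the opposite sign gave no fold. A difference counted from 4-fold, or 2-fold as an alternative. Other alternatives were both arrays well above background, no filter, quantile scaling, normexp with an offset of 50 in limma 3.58.1 (R 4.3.3), no scaling, and the mean of probes. Every fibrillar or type IV chain, and any other member past 4-fold in a comparison, was named with all its levels, and up to 4 other genes per list and comparison past 4-fold. The steps were tested on simulated data. The members, lists and rules were chosen with earlier results of these data known. The number of arrays limits the precision, and no p-value was computed.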

Additional observations from a re-analysis of the deposited data

Results flagged for a closer look

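Col18a1 lay on opposite sides in the gate at the 2 stages, with log2 differences between gated and other GFP-positive cells of -0.87 at E9.5 and 2.88 at E11.5, both clear of spot noise. Col4a3 did so at -0.90 and 0.95, where both values are bounds, since the gated value of E9.5 and the other GFP-positive value of E11.5 were not well above background. Col6a6 gave -0.44 at E9.5 and 0.83 at E11.5, and its second probe was not well above background on any array. The difference between the stages was not tested for these 3 genes, because each stage has 1 array per population, and the E9.5 arrays lie on different slides. Of the 39 members measured in the gate at both stages, these 3 passed on both sides by more than 3 times the spot noise of a difference, or 0.43. The E9.5 value of Col6a6 lies just past that mark. The noise was taken over probes with 10 spots where they were well above background, while each of these genes is read by 1 spot. It does not cover values that are not well above background, as for Col4a3. A probe that the files describe as collagen type VI alpha 3 but that carries no such gene name was well above background in 1 population, the other GFP-positive cells of E11.5, at a level of -3.05. No comparison used it.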

How the results depend on the processing

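No paired analysis by replicate was possible because each population has 1 array and the labels carry no replicate numbers. A fit that takes the 2 stages as replicates of the gate was not run. No called difference turned its sign under any alternative in which it could be computed. Of the 29 called differences of named members, 29 still passed 4-fold with no filter, 29 without scaling, 28 with quantile scaling, 27 with the mean of probes and 12 with normexp, and of the 20 that rest on 2 arrays well above background all 20 passed. The count lower in the E11.5 gate was between 6 (normexp) and 13 (quantile or no scaling) against 11. Of all genes 0.946% were lower there with normexp, 3.36% with quantile scaling and 4.02% without scaling, against 3.25%. Counts that moved by over 1.5 times, with the cause not tested, were as follows. With both arrays well above background, which leaves out bounds, the higher count at E8.5 was 0 (0.669% of all genes). For gated and other GFP-positive against GFP-negative cells of E9.5 it was 0 and 0 (0.838% and 0.532% of all genes). In the E11.5 gate it was 1 (3.33%, against 1.62%). The lower counts were 0 at E8.5 (1.56% of all genes) and 1 for other GFP-positive cells across stages (2.7%, against 1.8%). With no filter, 2 were higher at E8.5 (4.88%, against 2.01% of all genes). In other GFP-positive against GFP-negative cells of E9.5, 3 were higher (7.32%, against 5.38%), near the share of all genes. With quantile scaling, 0 were higher at E8.5 (0.675% of all genes). In gated against GFP-negative cells of E9.5, 2 were lower (5.71%, against 2.04%), and 2 also without scaling (5.71%, against 2.36%). In other GFP-positive cells across stages 5 were higher (12.5%, against 3.27%), and 5 also without scaling (12.2%, against 1.98%). With normexp, higher counts were 0 at E8.5, 0 and 0 for gated and other GFP-positive against GFP-negative cells of E9.5, 0 in the E11.5 gate and 1 for other GFP-positive cells across stages, and lower counts were 0 at E8.5, 0 for gated against GFP-negative cells of E9.5, 6 in the E11.5 gate, 2 for gated and 1 for other GFP-positive cells across stages. From 2-fold, the counts higher and lower were 2 and 3 at E8.5, 1 and 9 in the E9.5 gate, 2 and 7 for gated and 5 and 2 for other GFP-positive against GFP-negative cells of E9.5, 5 and 18 in the E11.5 gate, 1 and 10 for gated and 11 and 6 for other GFP-positive cells across stages. The shares of all genes from 2-fold are given with each comparison in the Results. Scaling moved the median difference of all genes by over 0.1 in every comparison but that of gated cells across stages: it was 0.18 without scaling against 0.05 at E8.5, -0.04 with quantile scaling against -0.15 in the E9.5 gate, -0.18 without scaling against 0.01 for gated and -0.08 against 0.14 for other GFP-positive against GFP-negative cells of E9.5, -0.06 without scaling against 0.15 in the E11.5 gate, and -0.04 with quantile scaling against -0.36 for other GFP-positive cells across stages. Signal near background limits Col4a3, Col5a3, Col6a4, Col9a3, Col10a1, Col12a1, Col13a1 and Col24a1, each well above background on at most 3 arrays.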

Other observations

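Collagen probes outside the name rule showed further patterns. Emid2, which RefSeq lists as Col26a1, was well above background on all 7 arrays, at -0.02 in GFP-positive and -0.91 in GFP-negative cells of E8.5, 1.23 in gated, 1.58 in other GFP-positive and 0.64 in GFP-negative cells of E9.5, and 2.29 in gated and 2.37 in other GFP-positive cells of E11.5. Both E11.5 populations thus held its highest levels, close together. One Col16a1 probe, not the brightest, stood at -4.31 in gated cells, not well above background, and 0.39 in other GFP-positive cells of E11.5, while the brightest stood at -1.88 and -0.92. One Col25a1 probe stood at -6.54 in GFP-positive and at -5.61 in GFP-negative cells of E8.5, neither well above background, and at -2.06 in gated and -0.80 in other GFP-positive cells of E11.5.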
